A study of Homo sapiens with 12 samples.

Results

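JUN, JUNB, FOS, FOSB, ATF3, EGR1, KLF6, IER2, IER3 and DUSP1 are 10 immediate early and stress genes, and their mRNA was followed in HEK293T cells that carried a reporter with a trigger of microRNA degradation. They were taken by gene name, 10 genes of 67053 listed, and the level of a gene is the sum of FPKM (fragments scaled for transcript length and library depth) over the transcripts of one gene identifier. HEK293T is a human embryonic kidney line that carries the SV40 large T antigen. The cells were transfected with 2 µg of a GFP plasmid in one of 3 forms: the GFP control, GFP with a BCL2L11 trigger in its 3′ untranslated region, or GFP with a TRIM9 trigger there. Poly-A RNA was taken 48 h later from 2 libraries per group, so 6 libraries in all. A trigger pairs extensively with a microRNA and leads to its loss, the BCL2L11 trigger with miR-221/222 and the TRIM9 trigger with miR-218. PEI and lipofectamine 3000 were both used, and which one each culture received is not given in the sources used here, nor is the promoter of the reporter. All groups were transfected with a GFP plasmid, the control included.

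Immediate early genes are switched on within minutes of a growth signal or a stress, without new protein synthesis, and their mRNAs are short-lived. MAP kinases act on factors bound at their promoters, chiefly SRF with its ternary complex partners and CREB or ATF factors. The JUN and FOS proteins then pair through leucine zippers into AP-1, and DUSP1 closes the loop by removing the activating phosphates from MAP kinases.

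The libraries held between 4.11 and 5.34 gigabases of aligned fragments, taken from the ratio of coverage to FPKM, and the GFP control of replicate 1 had the fewest transcripts above 0 (83584 of 250719, against 99690 to 110534 in the others). Each trigger gene stood far above the other groups in its own libraries (BCL2L11 at 11484 and 11275 FPKM, TRIM9 at 5297 and 3948), reads of the plasmid included. Of the HEK293 markers IRS4, LIN28B and NEFM were present at 8.61 to 80.3 FPKM, and PAX2 and LHX1 stayed below 1. The HEK293 markers summed to 35.4 FPKM (GFP), 42.9 (BCL2L11) and 52.6 (TRIM9) in the libraries of replicate 1 and to 114.7, 110.5 and 133.8 in those of replicate 2. The fibroblast markers summed to 1.48 and 2.01 FPKM in the GFP control, 7.60 and 2.07 with the BCL2L11 trigger and 3.28 and 2.51 with the TRIM9 trigger. DCN was at or near 0, and the highest single value of this list was 4.02. The blood markers summed to 4.12 to 10.01 FPKM in the GFP control, 4.14 to 7.35 with the BCL2L11 trigger and 4.43 to 8.86 with the TRIM9 trigger. PTPRC, CD3E and HBB were listed at 0 in all 6, so CD14 and HBA1 made up these sums, with a highest single value of 7.45. The epithelial markers summed to 1.56 to 2.03, 1.54 to 1.99 and 1.51 to 2.25 FPKM, with KRT5 and KRT19 listed at 0 and a highest single value of 1.32. Libraries of title numbers 1 to 3 and 4 to 6 are called library sets 1 and 2, and the labels state neither a pairing nor a batch.

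The 4 short stretches of promoter below hold the same kind of element. They come from the members with the lowest differences between TRIM9 and GFP libraries. For JUN and KLF6 these were -0.488 (SE 0.366) and -0.555 (SE 0.462) on the log2(FPKM + 1) scale, and the KLF6 libraries of the groups overlapped. The windows are RefSeq's (GRCh38.p14), 250 bases before to 50 after a start site, and 9 of 10 members had one (10 windows, ATF3 having 2). The capitals mark TGACNTCA, the 8-letter form shared by the cAMP response element and the related JUN and ATF element, searched on both strands.
DUSP1: ggcagggcgggTGACGTCAccgccccgtca
ATF3: cacctatgataTGACATCAtatggccactc
JUN: aggccttggggTGACATCAtgggctatttt
KLF6: ttggccggagcTGACATCAtcggcgcgcag

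They lie at chr5:172771302-172771331 (minus strand), chr1:212565273-212565302 (plus), chr1:58784096-58784125 (minus) and chr10:3785363-3785392 (minus), and the match begins at -125, -123, -67 and -172 relative to the start site. The ATF3 window belongs to the distal start of that gene, and the other ATF3 window did not hold the element. The element was present in 7.72% of the 35116 windows of this length, and in windows of 9.21% of the 27305 genes searched. The form TGACGTCA (1.85% of windows) was in DUSP1 alone, and TGACATCA (2.61%) in ATF3, JUN and KLF6. None of the other 5 members with a window (JUNB, FOS, FOSB, EGR1 and IER2) held it. The match with the lowest differences holds for TRIM9 against GFP. For BCL2L11 against GFP, DUSP1 and ATF3 were again lowest, but KLF6 (-0.235) and JUN (-0.179) were not next. EGR1 (-0.689), FOSB (-0.338) and FOS (-0.269), whose windows lack the element, lay below them. These motifs were chosen after the levels were known, so the match is a description.

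EGR1, FOS and FOSB hold other elements. The window of EGR1 has 2 CArG boxes, the site that SRF binds, and this box was in 1.29% of the windows. Sequence outside the windows was not searched, so a motif absent here may lie beyond them.
EGR1, first box: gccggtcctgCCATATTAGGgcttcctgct
EGR1, second box: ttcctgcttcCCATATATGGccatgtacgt
FOS: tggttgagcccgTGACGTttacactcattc
FOSB: gcaaggggcgggTGACGTaagcaggggggc

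The capitals mark the CArG box in EGR1 and the 6 letters TGACGT in FOS and FOSB, the latter found on either strand in 7.98% of windows and, among the members, also in EGR1 and DUSP1. In DUSP1 it lies within TGACGTCA and, apart from that, at -172. They lie at chr5:138465364-138465393, chr5:138465386-138465415, chr14:75278752-75278781 and chr19:45467924-45467953, all on the plus strand. No member window held TGACTCA, the canonical AP-1 site (4.95% of windows), and the windows of JUNB and IER2 held none of these motifs.

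JUN had the highest mean and ATF3 the next in each group, with overlap between them in the GFP libraries alone, and DUSP1 and IER2 came after. In FPKM, which is per length, the mean levels over the 6 libraries ran from 152 for JUN, 85.4 for ATF3, 32.4 for DUSP1 and 26.6 for IER2 to 8.39 for JUNB and 3.45 for FOS. The order of DUSP1 and IER2 differed by group: DUSP1 lay above IER2 without overlap in GFP cells, the pair overlapped with the BCL2L11 trigger, and IER2 lay above DUSP1 without overlap with the TRIM9 trigger. KLF6, JUNB, EGR1 and FOS formed a middle group whose neighbours overlapped in the GFP cells. FOSB (0.716 to 1.72 FPKM) and IER3 (0.490 to 0.944) were lowest. Behind these values stood 1913 to 3077 aligned kilobases for JUN but 23.4 to 43.1 for FOS, 11.5 to 26.1 for FOSB and 3.03 to 5.72 for IER3. The standard errors of the differences did not follow this order, the largest being those of KLF6 (0.46), EGR1 (0.45) and JUNB (0.40).

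**Figure D1:**
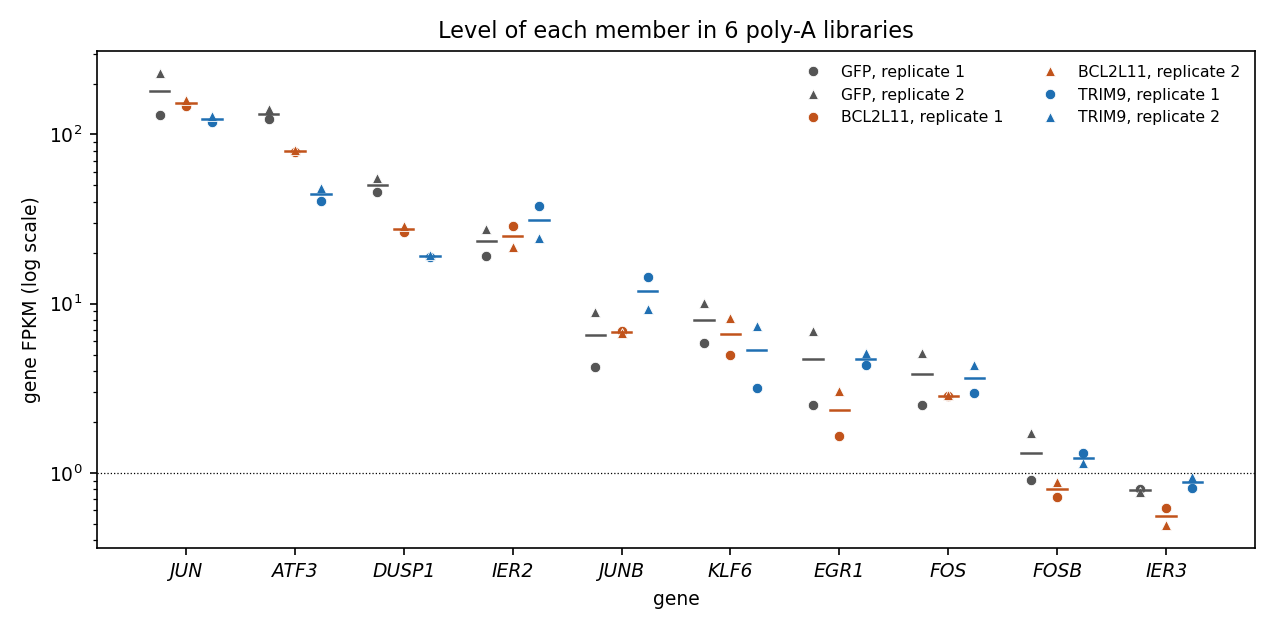
Gene FPKM on a log axis for each of the 10 genes (x axis, by mean level) in the 6 poly-A libraries. Circles are replicate 1, triangles replicate 2, short lines the group means, and the dotted line is 1 FPKM. ATF3 and DUSP1 step down from GFP (grey) to BCL2L11 (orange) to TRIM9 (blue) with no overlap, whereas the GFP libraries of JUN, EGR1 and JUNB lie far apart.

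With either trigger, ATF3 and DUSP1 stood below the GFP control, and lowest with the TRIM9 trigger. ATF3, a stress-induced factor of the ATF/CREB family (chromosome 1, 212565334 to 212620777, plus strand, ENSG00000162772.17), had 123 and 141 FPKM in GFP cells, 79.2 and 80.8 with the BCL2L11 trigger and 40.2 and 48.6 with the TRIM9 trigger. The 3 groups did not overlap. Its difference on the log2(FPKM + 1) scale was -0.71 (SE 0.29) for BCL2L11 and -1.55 (SE 0.29) for TRIM9, a 2.94-fold lower level, and 0.84 (SE 0.29) for BCL2L11 against TRIM9. DUSP1, the nuclear phosphatase that inactivates JNK, p38 and ERK kinases (chromosome 5, 172768096 to 172771195, minus strand, ENSG00000120129.6), had 46.0 and 55.0 FPKM in GFP cells, 26.5 and 28.8 with the BCL2L11 trigger and 18.9 and 19.4 with the TRIM9 trigger. Here too the groups were in the same order without overlap, a pattern that 1.15% of the 15183 genes tested showed, and 5.77% had both triggers below GFP without overlap. The differences of DUSP1 were -0.84 (SE 0.28) for BCL2L11, -1.35 (SE 0.28) for TRIM9, a 2.55-fold lower level, and 0.51 (SE 0.28) for BCL2L11 against TRIM9. In these bulk samples, fewer cells expressing a gene and less RNA per cell cannot be told apart.

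None of these differences passed over all genes. In limma, fitted to log2(FPKM + 1) of the 15183 genes with at least 1 FPKM in 2 or more libraries, the adjusted p of ATF3 and DUSP1 was 0.9999 in both comparisons with GFP and 1.0 between the triggers. By unadjusted p, ATF3 was number 10 and DUSP1 number 14 of all genes for TRIM9, and numbers 68 and 25 for BCL2L11. The 2 comparisons share the GFP libraries, so they are not independent of each other. When limma also held a term for the sets, the adjusted p for TRIM9 was 0.167 for ATF3 and 0.247 for DUSP1, and 0 members were called for either trigger or between them (0.00659%, 0.0395% and 0.0198% of all genes were). In that fit 3 members stood at an unadjusted p under 0.05 in each comparison, where 3.58%, 6.31% and 3.01% of all genes did. They were ATF3 and DUSP1 throughout, with EGR1 for BCL2L11 and between the triggers and KLF6 for TRIM9. Within sets 1 and 2 the TRIM9 differences were -1.59 and -1.52 for ATF3 and -1.24 and -1.46 for DUSP1, and the BCL2L11 differences -0.63 and -0.79, and -0.77 and -0.91. Over the 15 alternative settings ATF3 ranged from -1.69 to -1.42 for TRIM9 and from -0.81 to -0.61 for BCL2L11, and DUSP1 from -1.48 to -1.22 and from -0.97 to -0.71.

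ATF3 and DUSP1 were also lower relative to JUN, a comparison within each library that needs no scaling between libraries. The ratio of ATF3 to JUN was 0.940 and 0.613 in GFP cells, 0.538 and 0.507 with the BCL2L11 trigger and 0.339 and 0.377 with the TRIM9 trigger. For DUSP1 to JUN it was 0.351 and 0.239, 0.180 and 0.181, and 0.160 and 0.150. The ratio of ATF3 to DUSP1 stayed between 2.13 and 2.99 in the 6 libraries.

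The authors' deposited tables list 5 of the 10 members for each trigger. In the authors' deposited table for TRIM9, DUSP1 had a fold change of 0.407 (unadjusted p = 7.40e-04) and ATF3 one of 0.345 (unadjusted p = 0.0640), each with a q-value of 0.9999. JUN stood at 0.802 (unadjusted p = 0.0115) in the authors' deposited table for TRIM9 and at 1.16 in the authors' deposited table for BCL2L11. The JUN value for BCL2L11 differs in direction from the difference of -0.18 computed here from FPKM. EGR1 stood at 0.948 (log2 -0.08) in the authors' deposited table for BCL2L11, where the FPKM gave -0.69. How the authors' tables were scaled is not given in the sources used here.

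Transcript models of ATF3 fall into 3 classes by start site, which differed in level. Of its 11 models, the 4 with a downstream start (chromosome 1, from 212608628 to 212608915) held 65.9% to 95.0% of the gene's FPKM, the 2 with the distal start (212565334) 2.31% to 26.4%, and the 5 with internal starts the rest. Downstream-start models summed to 89.7 and 114.7 FPKM in GFP cells, 75.3 and 65.6 with the BCL2L11 trigger and 30.9 and 32.01 with the TRIM9 trigger. The TRIM9 libraries were lowest and the groups did not overlap. Distal-start models summed to 27.1 and 15.5 FPKM, 1.83 and 10.5, and 6.11 and 12.8. Both trigger groups lay below the GFP libraries, but the replicates of each differed widely and the triggers overlapped. The promoter stretch printed for ATF3 lies at the distal start, not at the downstream start that carried most of the mRNA. StringTie divides reads among overlapping models, so these shares are estimates.

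**Figure D2:**
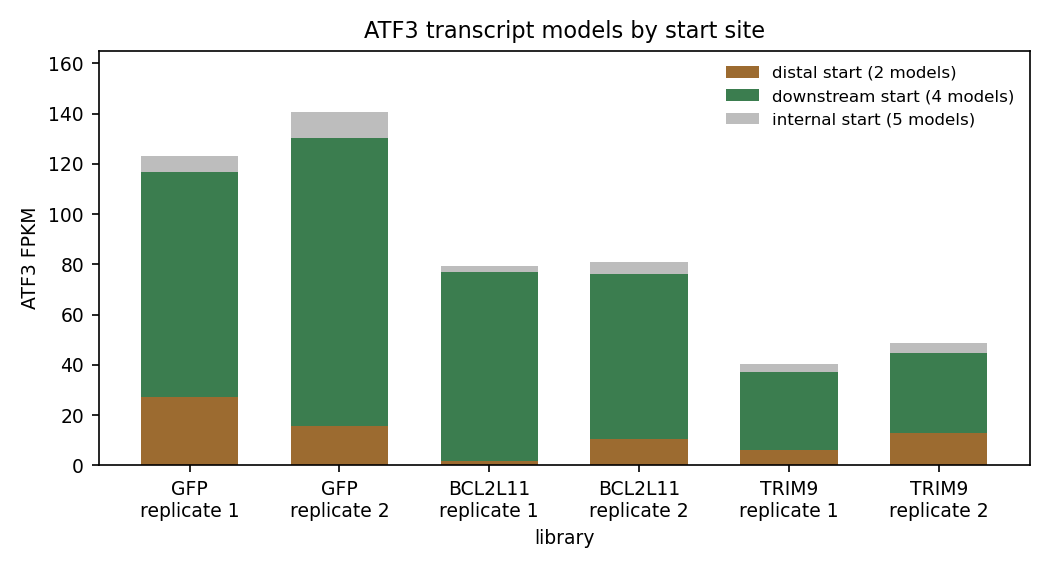
ATF3 FPKM (y axis, from 0) in each poly-A library (x axis), stacked by the start site of the transcript models: distal (2 models, brown), downstream (4 models, green) and internal (5 models, grey). The green part drops from 89.7 and 114.7 in GFP cells to 30.9 and 32.01 with the TRIM9 trigger.

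Of the other AP-1 members JUN was the most abundant. JUN, the main AP-1 subunit (chromosome 1, 58780791 to 58784047, minus strand), had 131 and 229.9 FPKM in GFP cells, 147 and 159 with the BCL2L11 trigger and 118 and 129 with the TRIM9 trigger. The TRIM9 libraries lay below those of both other groups, below GFP by a small margin (129 against 131). The GFP libraries differed from each other more than either did from the BCL2L11 libraries. The difference was -0.49 (SE 0.37) for TRIM9 and -0.18 (SE 0.37) for BCL2L11. Within the sets it was 0.17 and -0.53 for BCL2L11, opposite in sign.

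JUNB, an AP-1 subunit with weaker activity than JUN (chromosome 19, 12791486 to 12793315, plus strand), leaned the other way. It had 4.19 and 8.93 FPKM in GFP cells, 6.90 and 6.70 with the BCL2L11 trigger, and 14.4 and 9.24 with the TRIM9 trigger. Both TRIM9 libraries lay above the other 4, the replicate 2 value by a small margin over GFP. The difference was 0.80 (SE 0.40) for TRIM9, with 1.56 in set 1 and 0.05 in set 2, and 0.12 (SE 0.40) for BCL2L11. In limma the adjusted p was 0.9999 for each. The ratio of JUNB to JUN was 0.0320 and 0.0388 in GFP cells, 0.0468 and 0.0421 with the BCL2L11 trigger and 0.121 and 0.0717 with the TRIM9 trigger, so the TRIM9 libraries were highest without overlap.

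FOS and FOSB, which pair with JUN proteins in AP-1, were low. FOS (chromosome 14, 75278826 to 75282230, plus strand) had 2.53 and 5.14 FPKM in GFP cells, 2.84 and 2.89 with the BCL2L11 trigger and 2.98 and 4.33 with the TRIM9 trigger. FOSB (chromosome 19, 45467995 to 45475179, plus strand) had 0.903 and 1.72, 0.716 and 0.886, and 1.32 and 1.14. For both genes the BCL2L11 libraries lay below the TRIM9 libraries without overlap, for FOS by a small margin (2.89 against 2.98). Against GFP the BCL2L11 difference was -0.27 (SE 0.37) for FOS and -0.34 (SE 0.29) for FOSB, and the TRIM9 differences were -0.02 (SE 0.37) and -0.03 (SE 0.29). FOSB reached 1 FPKM in 3 of the 6 libraries, GFP replicate 2 and both TRIM9 libraries, which sufficed for it to be tested. No BCL2L11 library reached it, so FOSB was tested only through the groups where it was higher. A single model, with 4 exons and 2104 bases, held 84.7% to 94.4% of the FOS signal, whereas FOSB reads were spread over models whose shares changed from library to library.

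EGR1, a zinc finger factor induced through SRF (chromosome 5, 138465479 to 138469303, plus strand), had 2.53 and 6.88 FPKM in GFP cells, 1.65 and 3.04 with the BCL2L11 trigger and 4.31 and 5.11 with the TRIM9 trigger. The GFP libraries lay on either side of the TRIM9 libraries, and the BCL2L11 libraries lay below the TRIM9 libraries. The difference was -0.69 (SE 0.45) for BCL2L11 and 0.11 (SE 0.45) for TRIM9, and -0.80 (SE 0.45) between them. KLF6, a Krüppel-like zinc finger factor (chromosome 10, 3775996 to 3785281, minus strand), had 5.83 and 10.1 FPKM, 4.96 and 8.18, and 3.18 and 7.42 in the same order of groups. All groups overlapped, and in each the set 2 library was the higher. Within both sets KLF6 was lower with TRIM9 (-0.71 and -0.40) and, by less, with BCL2L11 (-0.20 and -0.28), with overall differences of -0.55 and -0.24 (SE 0.46 each).

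IER2, a nuclear protein named for its early response (chromosome 19, 13150411 to 13154911, plus strand), had 19.1 and 27.6 FPKM in GFP cells, 28.7 and 21.6 with the BCL2L11 trigger and 38.0 and 24.5 with the TRIM9 trigger. The groups overlapped, and the differences were 0.11 (SE 0.36) for BCL2L11 and 0.39 (SE 0.36) for TRIM9. In set 1 they were 0.57 and 0.96, in set 2 -0.34 and -0.17. An annotated single-exon model of 2934 bases held 66.6% to 100% of its signal. It starts at 13151975, away from the start at 13150411 to which the promoter window searched for IER2 belongs.

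IER3, a short-lived stress protein tied to ERK signalling and survival, was the member that could not be tested as one gene. Its name has 6 loci, on chromosome 6 (30743199 to 30744548, minus strand) and on 5 alternate scaffolds of the same region, and 4 of the scaffold copies had FPKM equal within 0.001. The chromosome 6 locus had 0.807 and 0.772 FPKM in GFP cells, 0.619 and 0.490 with the BCL2L11 trigger and 0.809 and 0.944 with the TRIM9 trigger, and 0 of 6 libraries reached 1 FPKM. The lower TRIM9 value exceeded the higher GFP value by a small margin. It held 12.4% to 17.8% of the sum over the 6 loci. That sum was 4.54 and 4.95 FPKM in GFP cells, 4.97 and 3.88 with the BCL2L11 trigger and 6.34 and 7.64 with the TRIM9 trigger. Only in the TRIM9 group did both libraries of the sum lie above all others. Summed over loci, the difference was 0.47 for TRIM9 and -0.09 for BCL2L11, with an adjusted p of 0.9999 in limma for each. How reads that match several copies were counted is not given in the sources used here, so the level of IER3 is uncertain.

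Taking the 10 genes as a list, limma called 0 of the 9 tested with the BCL2L11 trigger against GFP, where 0.00659% of all genes were called. At an unadjusted p under 0.05 there were 2, ATF3 and DUSP1, against 0.547% of all genes. With a term for the library sets these were 3 members and 3.58% of all genes, so the background depended on the fit. Which members stood under 0.05 also depended on the settings. After TMM scaling, or in a fit of the BCL2L11 and GFP libraries alone, DUSP1 remained under 0.05 and ATF3 did not. By log2 difference 8 of 10 lay below 0 and 2, JUNB and IER2, above, with a median of -0.25 against -0.08 over all genes tested, of which 62.7% lay below 0. Without GFP replicate 1 the median was -0.59 with 10 members below 0, and without GFP replicate 2 it was 0.02 with 5 below 0, while the median of all genes was -0.16 and 0.03. ATF3 and DUSP1 did not both keep an unadjusted p under 0.05 in any fit that left out 1 of the 6 libraries. In those fits ATF3 ranged from -0.808 to -0.615 and DUSP1 from -0.968 to -0.715. The trigger libraries lay below both GFP libraries for 4 (ATF3, DUSP1, FOSB and IER3), where the background is 12.3%, and above them for 0 (4.44%). The groups were thus apart for 4 of 10 (16.7% of all genes tested). IER3 is not among the genes tested, over which these shares were taken, and FOSB was apart by a small margin. The sign was the same in both library sets for 6 of 10, against 51% of all genes.

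With the TRIM9 trigger against GFP, limma also called 0 of 9 members (0.00659% of all genes were called). At an unadjusted p under 0.05 stood 2 (1.15% of all genes), again ATF3 and DUSP1. With a term for the library sets these were 3 members and 6.31% of all genes. The median was -0.02 against -0.04 over all genes, with 6 members below 0 and 4 above. ATF3, DUSP1 and JUN lay below GFP without overlap (background 11.2%) and JUNB and IER3 above it (6.66%), 5 of 10 in all (17.8%). The shares are over genes tested, which leave out IER3. JUN (129 against 131 FPKM), JUNB (9.24 against 8.93) and IER3 were apart from GFP by small margins. The sign was the same in both sets for 6 of 10 (46.5% of all genes). Without GFP replicate 1 the median became -0.44, and without GFP replicate 2 it was 0.14, while the median of all genes was -0.12 and 0.07. The GFP libraries differed most in EGR1, JUNB, JUN and FOS, which were 1.16, 0.94, 0.81 and 0.80 higher in replicate 2 on the log2(FPKM + 1) scale.

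The direct comparison of the triggers does not use the GFP libraries as a control. For 8 of the 10 members the libraries of BCL2L11 and TRIM9 did not overlap, against 14.2% of all genes tested. The 8 include IER3, which stayed below 1 FPKM and is not among the genes tested. They also include FOSB, which reached 1 FPKM in no BCL2L11 library, and FOS, which was apart by a small margin. BCL2L11 was the higher for ATF3, DUSP1 and JUN (background 5.72%) and the lower for JUNB, FOS, FOSB, EGR1 and IER3 (8.44%), while KLF6 and IER2 overlapped. All 10 had the same sign in both library sets, as did 58.5% of all genes. Limma called 0 of 9 members here (0.0132% of all genes), and 1, ATF3, stood at an unadjusted p under 0.05 (0.645%). Among the members the differences ran from -0.80 for EGR1 to 0.84 for ATF3.

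**Figure D3:**
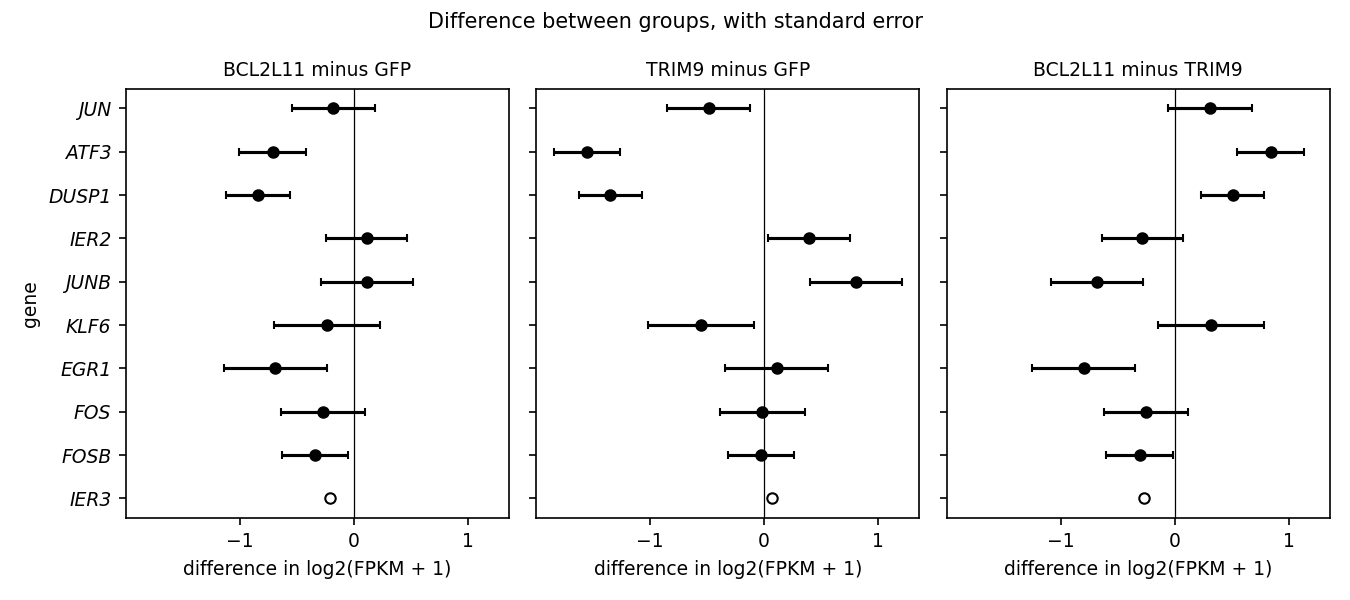
Difference in log2(FPKM + 1) between groups (x axis) for each gene (y axis) in the 3 comparisons, with bars of 1 standard error from limma. Open circles mark IER3, which was not tested. ATF3 and DUSP1 are the 2 genes far below 0 for TRIM9 minus GFP, at -1.55 and -1.35.

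**Figure D4:**
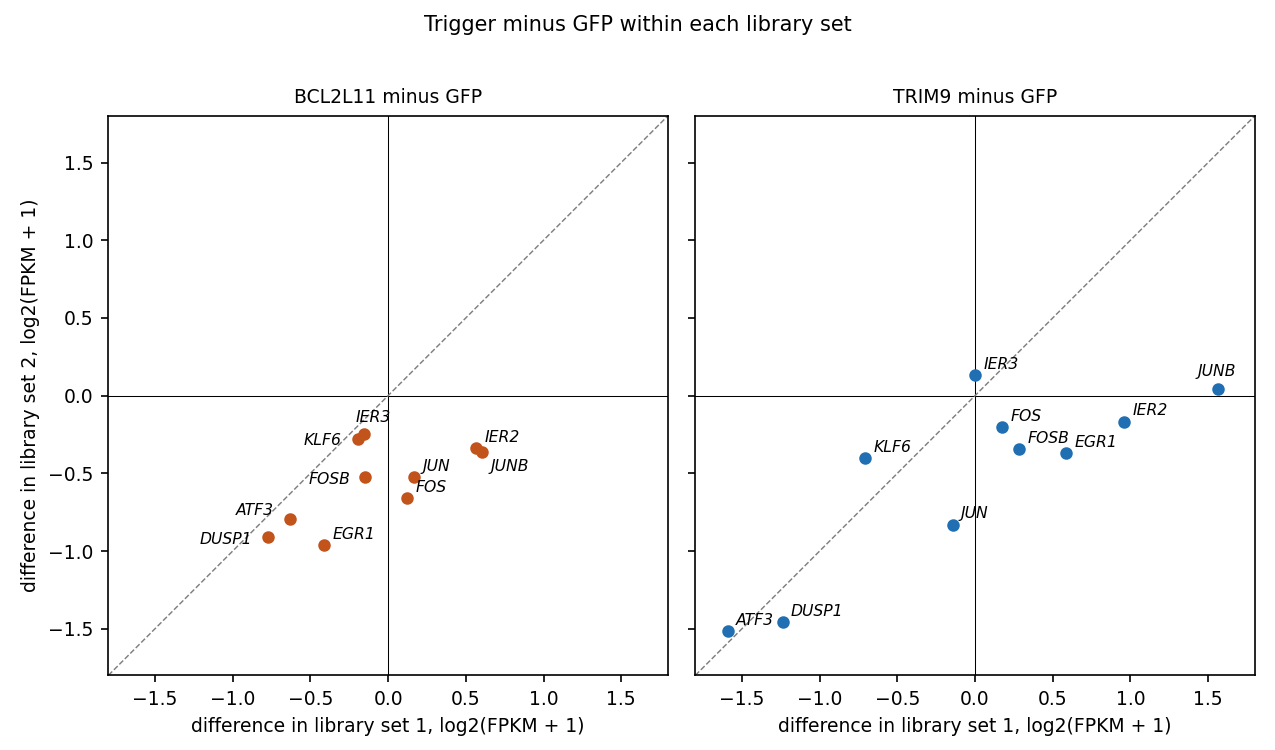
Trigger minus GFP in log2(FPKM + 1) within library set 1 (x axis) and set 2 (y axis) for each of the 10 genes, with the dashed line marking equal values. ATF3 and DUSP1 lie near that line for both triggers, whereas JUNB is at 1.56 and 0.05 and IER2 at 0.96 and -0.17 for TRIM9.

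Other genes of the pathway were taken as 6 lists, and limma called 0 members of any list in any of the 3 comparisons. Among other immediate early genes (35 listed, 28 tested), 3 had an unadjusted p under 0.05 for TRIM9 (1.15% of all genes), all on the lower side, and 0 for BCL2L11 (0.547%). Between the triggers there were 2, BTG2 and PLK2, both higher with BCL2L11 (0.645%). BTG2, an antiproliferative partner of the mRNA deadenylase, had 15.0 and 15.7 FPKM in GFP cells, 12.9 and 15.4 with the BCL2L11 trigger and 6.82 and 7.75 with the TRIM9 trigger. The TRIM9 libraries stood apart from the other 4, with a difference of -0.99 (SE 0.28) against GFP. PLK2, a serum-inducible polo-like kinase, had 4.80 and 5.90, 3.58 and 4.92, and 1.99 and 2.28 FPKM, with a TRIM9 difference of -1.01 (SE 0.31). CCN1, a secreted matrix protein induced through SRF and YAP, had 13.0 and 16.9, 10.2 and 11.2, and 7.40 and 7.94 FPKM, in the order GFP, BCL2L11 and TRIM9 without overlap, with a TRIM9 difference of -0.87 (SE 0.29). LIF, a cytokine, stood at -0.56 (SE 0.38) for TRIM9 and 0.24 (SE 0.38) for BCL2L11. The list's median was -0.13 for BCL2L11 and -0.20 for TRIM9.

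Of the other AP-1 and partner genes (14 listed, 12 tested), 1 had an unadjusted p under 0.05, FOSL1 for TRIM9 (1.15% of all genes). FOSL1, a FOS family gene, had 3.25 and 2.97 FPKM in GFP cells, 2.15 and 1.46 with the BCL2L11 trigger and 1.54 and 1.33 with the TRIM9 trigger. Both triggers lay below GFP, with differences of -0.56 and -0.76 (SE 0.29 each). FOSL2 stood at -0.43 and -0.53 (SE 0.36), ATF7 at -0.38 and -0.05 (SE 0.32), and BATF3 at 0.72 and 0.60 (SE 0.49). The medians were -0.33 for BCL2L11 and -0.17 for TRIM9.

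Kinases and factors upstream were given as 2 of the lists. MAP kinases and their activators (20 listed, 19 tested) had medians of -0.18 for BCL2L11 and -0.16 for TRIM9, with 0 at an unadjusted p under 0.05. For each trigger 1 of the 19 lay below GFP and 1 above it without overlap (16.7% and 17.8% of all genes in either direction). MAPK3, the gene of ERK1, stood at 0.30 and 0.50 (SE 0.32), with both trigger groups above GFP without overlap. MAP2K7 and MAPK8, of the JNK branch, stood at 0.58 and -0.43 for TRIM9. SRF, ternary complex and CREB factors (19 listed, 18 tested) had medians of -0.07 and -0.04, and 1 of the 18 was apart from GFP for BCL2L11 and 0 for TRIM9. RPS6KA4 stood at 0.55 and 0.45 (SE 0.41) and ELK4 at -0.47 and -0.39 (SE 0.43). NFKB1 stood at -0.20 and -0.41 (SE 0.37) and CRTC3 at -0.34 and -0.26 (SE 0.36).

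MAP kinase feedback genes, the class that DUSP1 belongs to (16 listed, 13 tested), had medians of -0.16 for BCL2L11 and -0.24 for TRIM9, and 0 stood at an unadjusted p under 0.05. Their TRIM9 libraries lay below GFP without overlap for 5 of the 13 (background 11.2%). DUSP5, a nuclear ERK phosphatase, stood at -0.40 and -0.42 (SE 0.27), DUSP7 at -0.28 and -0.39 (SE 0.29) and DUSP16 at -0.32 and -0.62 (SE 0.45). DUSP2 had 0.939 and 0.886 FPKM in GFP cells, 1.29 and 1.25 with the BCL2L11 trigger and 0.860 and 0.266 with the TRIM9 trigger. Against GFP, on the log2(FPKM + 1) scale, all 4 had smaller differences than DUSP1 for the same trigger. DUSP2 stood near or below 1 FPKM, where this scale understates a change.

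Genes of the ATF4 branch, which also governs ATF3 under amino acid and endoplasmic reticulum stress, went both ways (16 listed and tested, medians -0.15 and 0.00). DDIT3, the gene of CHOP, had 35.7 and 24.7 FPKM in GFP cells, 30.1 and 19.5 with the BCL2L11 trigger and 21.7 and 15.4 with the TRIM9 trigger, and stood at -0.67 (SE 0.36) for TRIM9. The set 1 library was the higher in each group. DDIT4, an inhibitor of mTORC1, CEBPB and CHAC1 stood at 0.83, 0.72 and 0.62 (SE 0.42, 0.43 and 0.36) for TRIM9. In set 2 these were 0.16, -0.01 and 0.08, and in GFP replicate 1 each was at its lowest of the 6 libraries.

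**Figure D5:**
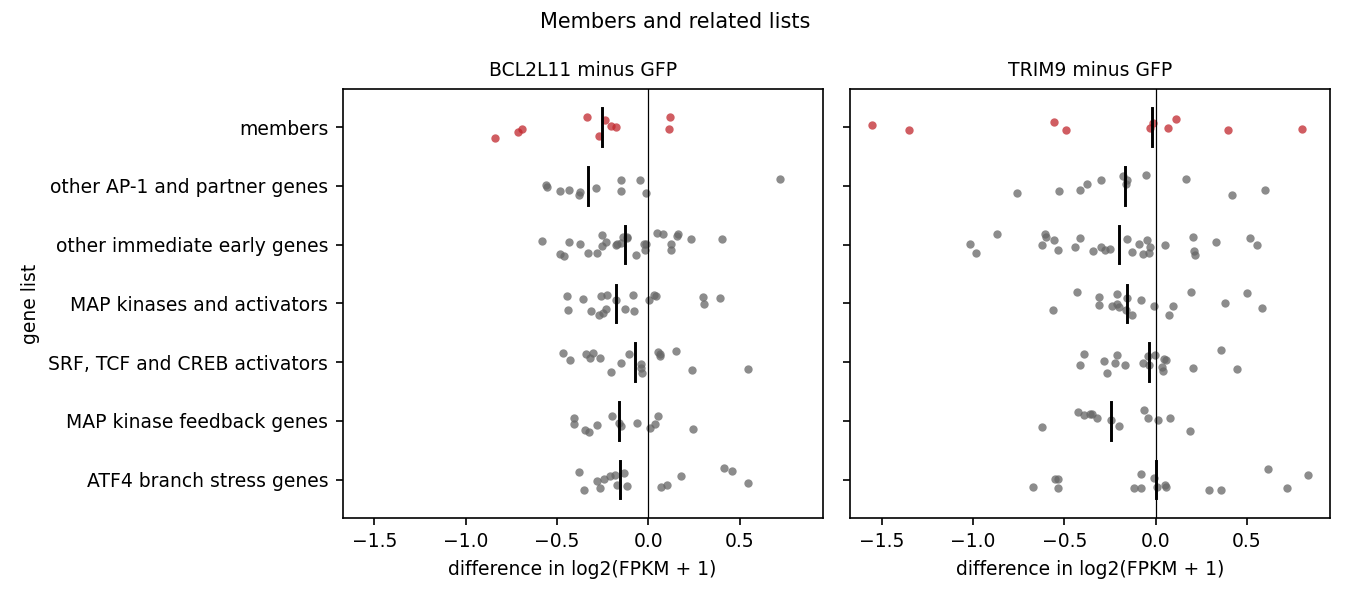
Difference in log2(FPKM + 1) from GFP (x axis) for the 10 genes (red) and the tested genes of 6 related lists (grey), 1 point per gene, with a black bar at each list's median. For TRIM9 the 2 lowest points of the panel are ATF3 and DUSP1.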

How the data were processed

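Poly-A RNA-seq of 6 libraries (3 groups, 2 replicates each) was used. Per the submitters' processing notes STAR, StringTie 2.1.3 and the hg38 build were used. Per the file headers the deposited tables gave the coverage signal and the FPKM of 250719 transcripts per library, 1 file per library. For part of the genes the authors deposited a ratio (fold change), with the log2 of that ratio. A p-value and a q-value accompany it in the tables the authors deposited, and the tool behind them is not given in the sources used here. FPKM was summed over the transcripts of each gene identifier. The 15183 of 67053 genes that reached 1 FPKM in 2 or more libraries were fitted as log2(FPKM + 1), pseudocount 1, in limma 3.58.1 (trend, group only, 6 libraries in 1 fit, two-sided p, Benjamini-Hochberg over all genes, threshold 0.05). The fit was tested on simulated data. A fold change on this scale understates the change of low genes. With 2 libraries a group, the smallest p of an exact permutation test is 0.333. The series text calls the libraries of a group biological replicates without saying how the cultures were separated, so p-values measure only the spread between these libraries. 0 of 15 pairs of libraries were identical.

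The members and lists were chosen with earlier results of these data known. All 10 members were named, and of each related list up to 4 tested genes of lowest unadjusted p over the 3 comparisons; 1 gene so chosen is not reported here. MAP kinase, SRF, AP-1, feedback, ATF4 and other immediate early genes made up the lists. For a name with several loci the locus on an assembled chromosome was used. Promoter windows came from RefSeq (GRCh38.p14).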

Additional observations from a re-analysis of the deposited data

How the results depend on the processing

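The 15 settings varied were TMM scaling, a pseudocount of 0.1, a minimum of 5 FPKM or none at all, a fit without the trend or with only the groups under comparison, the library set as a block, summing the loci of a name, keeping assembled chromosomes, and omitting each of the 6 libraries. The count of members called was 0 in all of them, as were the counts for the 6 related lists (315 of 315 counts kept). With so few of all genes called in any setting, these counts had little room to change. With the library sets as a replicate block the medians of the members were -0.25, -0.02 and -0.26 for BCL2L11 and TRIM9 against GFP and for BCL2L11 against TRIM9, no member was called, and the lowest adjusted p in limma was 0.167 (ATF3, TRIM9). That term raised all genes called for TRIM9 from 1 to 6, a fit of only TRIM9 and GFP gave 4, and leaving out BCL2L11 replicate 1 or BCL2L11 replicate 2 gave 5. The libraries share no number in the labels. Libraries of the same set deviated from their group means together (correlations across 15183 genes of 0.58, 0.49 and 0.83).

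With TMM, FOS and FOSB turned to 0.02 and 0.001 for TRIM9. Leaving out 1 library changed the sign of further members, whose values ranged, for BCL2L11, from -0.58 to 0.23 (JUN), -0.35 to 0.59 (JUNB), -0.67 to 0.13 (FOS), -0.59 to 0.12 (KLF6) and -0.14 to 0.37 (IER2). For TRIM9 they ranged from -0.41 to 0.38 (FOS), -0.29 to 0.23 (FOSB) and -0.47 to 0.69 (EGR1), and between the triggers from -0.19 to 0.83 (KLF6) and -0.59 to 0.025 (IER2). The median of the members for TRIM9 ranged from -0.44 without GFP replicate 1 to 0.14 without GFP replicate 2. These fits held fewer samples. ATF3 and DUSP1 kept their signs in all 3 comparisons and under each of the 15 settings. FOSB rested on 11.5 to 26.1 aligned kilobases per library, and IER3 was tested only with no filter or summed over loci.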
